A study of Mus musculus with 6 samples.

Results

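The rod phototransduction activation cascade was followed through 8 genes, and its members were all probe sets (groups of short oligonucleotide probes) that the platform annotation assigns to 1 of these genes alone. This gave all 8 genes, of 18193 with a probe set of their own, and 14 of the 45037 probe sets that are not array controls. There was no probe set shared between a member and another gene. The genes were Gnat1, Gnb1 and Gngt1 (transducin), Pde6a, Pde6b and Pde6g (phosphodiesterase) and Cnga1 and Cngb1 (the channel). They are the subunits of the 3 protein complexes of the cascade, and the choice was made with earlier results of these data known. Light damaged retinas (3 arrays) came from BALB/c mice, an inbred albino strain, that had been kept in darkness for 1 week. Their light exposure was 6 h of white fluorescent light at 6000 lux, and the tissue was taken 24 h later. Dark adapted retinas (3 arrays) came from mice of the same strain kept in darkness for 1 week without that light. The sources used here name no transgene, age or pooling. They also do not say that replicates are separate animals, so every p-value here reflects the spread of these samples alone, part of which may be technical.

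In rods, the absorption of a photon leads to activation of the G protein transducin. The transducin alpha subunit then takes the inhibitory gamma subunit off the phosphodiesterase, whose catalytic subunits break down cyclic GMP. The cation channel of the outer segment, held open by cyclic GMP, closes, and the rod hyperpolarizes. In albino rodents strong light injures photoreceptors.

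All values are log2 expression made with RMA, which is meant to bring arrays to a like distribution, and a change is light damaged minus dark adapted. Medians were 6.15 to 6.18 on the 6 arrays and lower quartiles 4.98 to 5.11. Upper quartiles differed more, at 7.41 to 7.67. Over all probe sets 458 changed in limma at an adjusted p under 0.05, 411 higher (0.913%) and 47 lower (0.104%). This split was 402 higher and 167 lower after a further quantile normalization, and 201 higher and 345 lower with arrays centred on reference genes. Of the rod markers, some of them picked after their values were seen, Sag, Rcvrn and Nrl lay between 11.57 and 13.57 on every array, and Prph2 between 5.87 and 7.97. The 10 measured retinal pigment epithelium markers averaged 6.64 to 7.32 in light damaged and 6.72 to 7.04 in dark adapted retinas, and their part in the results was not tested. None of the 10 passed in limma (0.269% of all genes fell and 1.74% rose). With the replicate number as a block, 6.73% of all genes rose and 2.13% fell. In that fit Ttr rose (0.99, limma adjusted p = 0.0471) and Rlbp1, a gene also of Müller glia, fell (-0.50). The same-numbered arrays of Ttr differed by 1.18, 1.78 and 0.02. Rdh5, a retinol dehydrogenase, had the smallest p of the 10 without the block (0.82, limma adjusted p = 0.193). In these bulk samples, fewer rods and less RNA per rod cannot be told apart.

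Promoters were taken from the RefSeq table (GRCm38.p6, 250 bases before to 50 after the gene start) for 5 of the 8 genes. They are shown as a description, with short motifs of CRX and NRL, transcription factors of photoreceptors and rods. Whether these factors had a part in the changes was not tested. The letters TAATCC (CRX core) and TGCTGA (NRL motif) were searched on both strands, and matches are in capitals. TAATCC or its reverse complement occurred in 3 of the 5, and in 7.06% of 32851 promoters in the table. TGCTGA or its reverse complement occurred in 1 of the 5, and in 19.5% of all. The motifs do not overlap in the sequences shown, and a match is a description of letters, not of binding. Gnb1, on chromosome 4, had no match in this window. The other 4 follow, 5′ to 3′ in the direction of the gene.
Gngt1 (chr6:3993758-3994057, plus strand): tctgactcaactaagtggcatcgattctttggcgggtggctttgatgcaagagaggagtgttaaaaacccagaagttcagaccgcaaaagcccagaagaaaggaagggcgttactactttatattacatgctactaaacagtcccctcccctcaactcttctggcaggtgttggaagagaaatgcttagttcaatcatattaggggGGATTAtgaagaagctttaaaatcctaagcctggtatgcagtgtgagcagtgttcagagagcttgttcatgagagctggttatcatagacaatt
Pde6b (chr5:108388123-108388422, plus strand): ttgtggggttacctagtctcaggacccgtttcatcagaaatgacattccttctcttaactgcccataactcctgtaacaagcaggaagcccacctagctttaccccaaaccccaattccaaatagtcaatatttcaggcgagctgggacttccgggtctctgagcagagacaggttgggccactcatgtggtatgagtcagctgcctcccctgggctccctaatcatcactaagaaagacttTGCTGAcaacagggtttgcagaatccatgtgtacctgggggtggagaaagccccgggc
Cnga1 (chr5:72642703-72643002, minus strand): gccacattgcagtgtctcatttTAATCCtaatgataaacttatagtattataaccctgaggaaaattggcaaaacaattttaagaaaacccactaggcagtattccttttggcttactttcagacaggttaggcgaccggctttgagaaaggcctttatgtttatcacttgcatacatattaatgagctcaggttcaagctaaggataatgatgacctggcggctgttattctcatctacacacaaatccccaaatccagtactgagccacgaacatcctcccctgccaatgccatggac
Cngb1 (chr8:95306536-95306835, minus strand): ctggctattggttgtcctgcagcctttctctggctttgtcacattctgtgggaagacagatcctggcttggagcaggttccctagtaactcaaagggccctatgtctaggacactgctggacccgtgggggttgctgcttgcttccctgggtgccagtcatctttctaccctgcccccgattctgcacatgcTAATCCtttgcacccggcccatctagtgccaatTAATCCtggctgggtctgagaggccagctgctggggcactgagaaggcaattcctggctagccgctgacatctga
The Cngb1 promoter held the CRX core at 2 places, from -58 to -53 and from -25 to -20 relative to the gene start. In Gngt1 it lay from -44 to -39 on the opposite strand and in Cnga1 from -228 to -223. The NRL motif of Pde6b lay from -8 to -3.

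Every member probe set was lower in light damaged retinas, as were 48.0% of all probe sets. The 14 changes ran from -1.0 to -0.39 on the log2 scale, with a median of -0.75 against 0.01 over all probe sets. In 11 of the 14 the 3 light damaged values all lay below the 3 dark adapted ones, against 4.21% of all probe sets and 4.23% of the 1490 that averaged 10 or more. None passed the limma test at an adjusted p under 0.05 (0.104% of all probe sets passed it and were lower), with adjusted p from 0.052 to 0.648. At an unadjusted p under 0.05 there were 13, against 2.28% of all. Same-numbered arrays deviated together in these same values and were taken as pairs, which no label states. With the number as a block 11 of the 14 fell in limma, against 1.2% of all probe sets. Of the 42 differences between same-numbered arrays 41 were negative, and 13 of the 14 probe sets were lower in all 3 pairs, against 18.8% of all. The exception was replicate 3 of Pde6a. Over all probe sets the median differences of the 3 pairs were -0.02, -0.0 and 0.08. The 14 probe sets read only 8 genes on the same 6 arrays, and each gene correlated at 0.879 to 0.986 with the other members. These counts are therefore not counts of independent results.

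**Figure D1:**
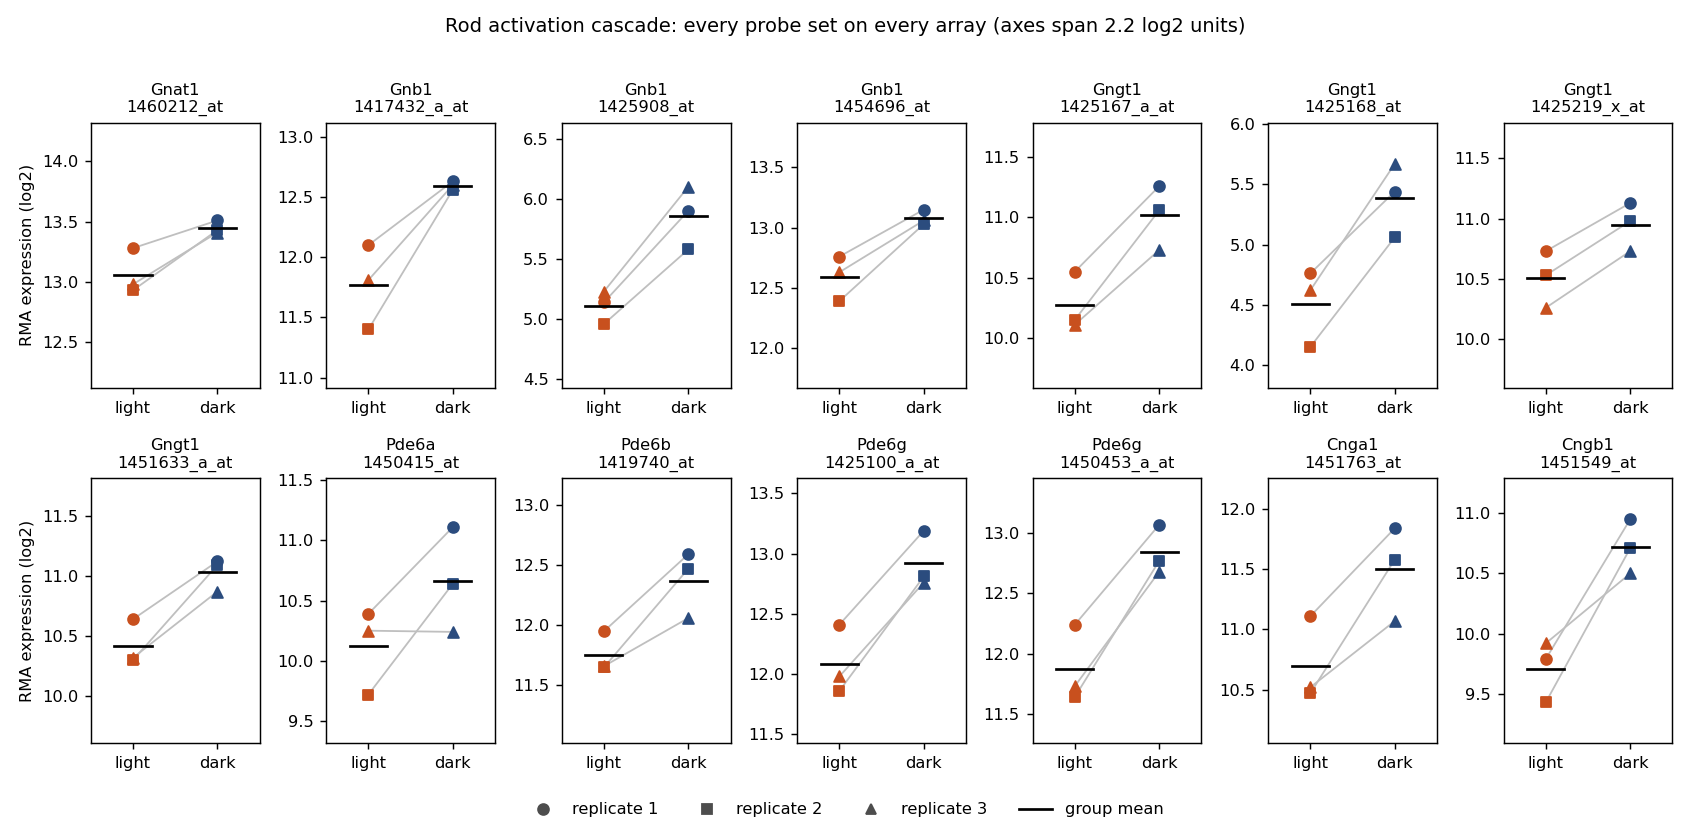
RMA expression (log2) of the 14 member probe sets, 1 panel each, in 3 light damaged (left) and 3 dark adapted (right) retinas; symbols give the replicate number, grey lines join same-numbered arrays and bars are group means. All group means are lower in light damaged retinas, and the groups overlap in 3 panels (the x_at probe set of Gngt1, Pde6a and Cnga1).

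Gnat1 encodes the rod transducin alpha subunit, which carries the signal on to the phosphodiesterase. Its 1 probe set read 13.28, 12.93 and 12.98 in light damaged retinas, against 13.51, 13.43 and 13.41 in dark adapted retinas. The groups did not overlap, and the light damaged values were the more spread (SD 0.19, against 0.05 in dark adapted retinas, n = 3 each). The change was -0.39 ± 0.14 (SE), or 76.1% of the dark adapted level, with adjusted p = 0.397 in limma and 0.0933 with the block. It was the smallest change of the 14.

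Gnb1 encodes a G protein beta subunit that rods use in transducin and that many other cells also express. Its brightest probe set read 12.76, 12.39 and 12.63 in light damaged retinas, against 13.15, 13.03 and 13.06 in dark adapted retinas. The groups did not overlap, and the change was -0.49 ± 0.14 (SE; limma adjusted p = 0.225, and 0.0445 with the block). A further bright probe set read 12.10, 11.40 and 11.81 in light damaged and 12.63, 12.56 and 12.60 in dark adapted retinas, a change of -0.82 ± 0.18. The remaining one was dim, at 5.14, 4.96 and 5.23 in light damaged and 5.90, 5.58 and 6.10 in dark adapted retinas. All 3 Gnb1 probe sets were thus separated between the groups, and all fell with the block.

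Gngt1, the rod transducin gamma subunit, which helps to hold transducin on the membrane, was read by 4 probe sets. The brightest, an x_at set whose probes may match other transcripts, read 10.73, 10.53 and 10.26 in light damaged retinas, against 11.13, 10.98 and 10.73 in dark adapted retinas. Its highest light damaged value equalled its lowest dark adapted one to 2 decimals, and the change was -0.44 ± 0.17. The other 3 did not overlap and changed by -0.61, -0.75 and -0.88. The last of these was dim (4.15 to 4.76 in light damaged and 5.06 to 5.67 in dark adapted retinas), around the lower quartile of the arrays (4.98 to 5.11). The block gave a fall for these 3 and an adjusted p of 0.0503 for the x_at set (limma).

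Pde6a and Pde6b encode the catalytic alpha and beta subunits of the rod phosphodiesterase. Pde6a read 10.39, 9.72 and 10.25 in light damaged retinas, against 11.11, 10.64 and 10.24 in dark adapted retinas. The groups overlapped, since the dark adapted replicate 3 was as low as light damaged ones. The change was -0.54 ± 0.26 (limma adjusted p = 0.648, and 0.162 with the block). It was -0.34 without light damaged replicate 2 and -0.32 without dark adapted replicate 1. Pde6b read 11.95, 11.65 and 11.66 in light damaged retinas, against 12.59, 12.47 and 12.06 in dark adapted retinas. Here the groups were separate, with a change of -0.62 ± 0.17 (adjusted p = 0.232, and 0.0299 with the block, limma).

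Pde6g, the inhibitory gamma subunit, was read by a pair of bright probe sets. The brighter read 12.41, 11.86 and 11.98 in light damaged retinas, against 13.19, 12.81 and 12.76 in dark adapted retinas. The second read 12.24, 11.64 and 11.73 in light damaged and 13.07, 12.77 and 12.68 in dark adapted retinas. Both were separated between the groups, with changes of -0.84 ± 0.19 and -0.97 ± 0.19. Their adjusted p were 0.121 and 0.0828 in limma, and 0.00576 and 0.00425 with the block.

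Cnga1 encodes the pore-forming subunit of the rod channel. It read 11.11, 10.47 and 10.52 in light damaged retinas, against 11.84, 11.58 and 11.07 in dark adapted retinas. The highest light damaged value, of replicate 1, lay just above the lowest dark adapted one, of replicate 3. The change was -0.80 ± 0.25 (limma adjusted p = 0.298, and 0.0187 with the block).

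Cngb1, the modulatory subunit of the same channel, had the largest change of the 14. It read 9.79, 9.43 and 9.92 in light damaged retinas, against 10.95, 10.71 and 10.50 in dark adapted retinas. The groups were well separated, and the change was -1.0 ± 0.18 (SE), or 49.9% of the dark adapted level. With 1 probe set per gene (the brightest) and adjustment over 18193 genes in place of 45037 probe sets, Cngb1 fell (limma adjusted p = 0.0289, against 0.052 over probe sets). It was the 1 member gene of 8 to do so, where 0.269% of all genes fell, and the median change of the 8 was -0.58 against 0.03 over all genes. This call was lost on leaving out any array but dark adapted replicate 3 (adjusted p from 0.0533 to 0.116 in the other cases). With the block 6 of the 8 genes fell, against 2.13% of all genes; Gnat1 and Pde6a did not pass.

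The number of members that fell also moved with the scaling, while all changes stayed negative. After a further quantile normalization 8 of the 14 probe sets fell in limma (0.371% of all did) and 5 of the 8 genes (0.885%). The change of Gnat1 was then nearer 0, at -0.27 against -0.39 as deposited. The median of the 14 was then further from 0, at -0.80 against -0.75. With arrays centred on reference genes 11 probe sets (0.766%) and 7 genes (1.41%) fell. With the mean of all probe sets of a gene, Cngb1, Gnb1 and Pde6g fell (0.352% of all genes did). Over the probe sets above the median level, which hold 12 of the 14, Cngb1 fell (0.297% of them did).

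Brightness was set beside the changes, since RMA values of very bright probe sets can be compressed. The highest value on an array was 13.77 to 13.89. Only 7 probe sets averaged brighter than Gnat1, which lay 0.40 below the highest probe set in dark adapted retinas, while the brightest Gnb1 and Pde6g sets lay 0.76 and 0.93 below it. Over the 12 probe sets averaging 13 or more, changes ran from -0.39 to 0.33 and none passed the test, and Gnat1 had the largest of them in size. The 104 probe sets averaging from 12 to 13 had a median size of change of 0.229, and 5 of them were members. Within Gnb1 the brightest probe set had the smallest change (-0.49, against -0.82 and -0.75), while in Pde6g the brighter of its pair did so (-0.84 against -0.97). In Gngt1 the brightest set also had the smallest change (-0.44, against -0.61, -0.75 and -0.88). That set was far less bright, at 2.90 below the highest probe set in dark adapted retinas. Whether saturation lessened the changes of Gnat1 and Gnb1 was not tested.

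**Figure D2:**
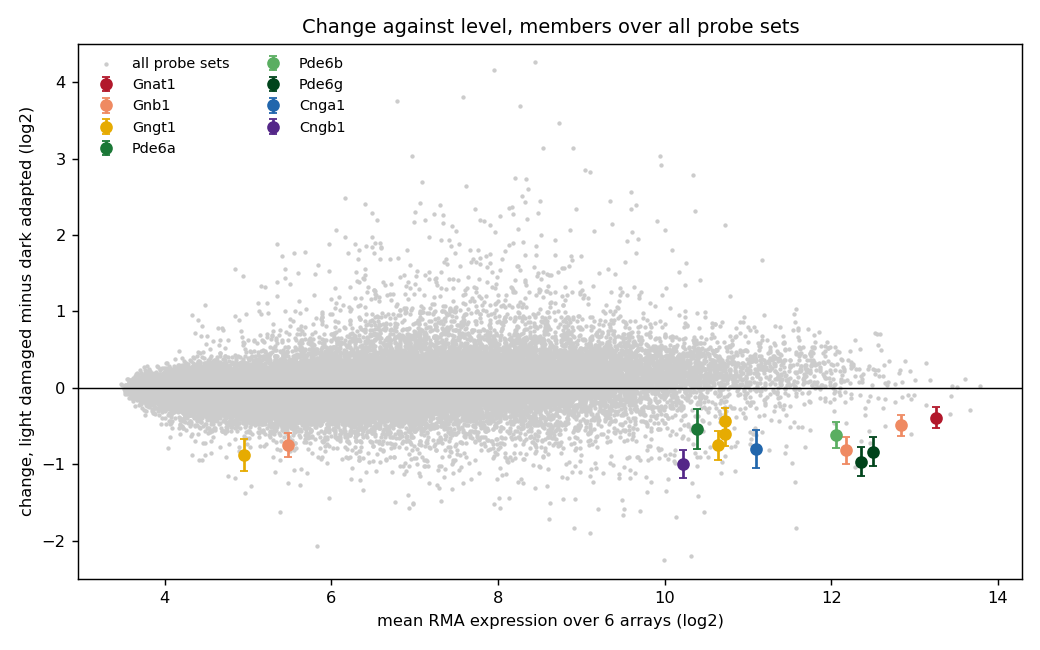
Change (log2, light damaged minus dark adapted) against mean RMA expression (log2) for all 45037 probe sets (grey) and the 14 member probe sets (coloured, with SE). The members lie below 0 at every level, and the brightest, Gnat1, has the smallest change.

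Each member was then compared with the gene that does the same task in cones, as the difference of the 2 log2 changes. Of 7 such differences 6 were negative, which means a lower change in the rod gene. The exception was Gnat1, whose change was -0.39 against -1.07 for Gnat2, the cone transducin alpha subunit (difference 0.67; same-numbered arrays 0.95, 0.63 and 0.44). Gnat2 fell in limma (adjusted p = 0.0145 over genes). Cngb1 minus Cngb3, its cone channel counterpart, gave -0.71, and Pde6a and Pde6b minus Pde6c, the cone phosphodiesterase, gave -0.67 and -0.75. Pde6g minus Pde6h gave -0.36 and Gngt1 minus Gngt2 -0.21. Some of these sizes rested on single arrays: Gngt1 minus Gngt2 was -0.03 without light damaged replicate 3 and -0.04 without dark adapted replicate 1. It was -0.36 and -0.37 without light damaged replicate 1 and dark adapted replicate 3, and -0.44 with the mean of all probe sets. Pde6g minus Pde6h was -0.20 without light damaged replicate 2 and -0.14 without dark adapted replicate 3. Pde6a minus Pde6c was -0.36 without light damaged replicate 2 and -0.41 without dark adapted replicate 1. Pde6c served in both the Pde6a and the Pde6b difference. Some cone genes were dim: over the 6 arrays Gngt2 read 5.33 to 5.74, Cngb3 6.24 to 6.97 and Pde6c 7.53 to 8.02. Gnat2, Pde6h and Gnb3 read 8.92 or more. Gnat1, the brightest member, read 12.93 to 13.51. Whether saturation lessened its change, or low levels those of the dim cone genes, was not tested. Gnb1 minus Gnb3 gave -1.52, as Gnb3, a beta subunit of cones and ON bipolar cells, had a positive change of 1.03. In exact two-sided permutation tests of 3 arrays against 3, which cannot go below p = 0.1, 5 of the 7 reached p = 0.1, and after Benjamini-Hochberg adjustment over all 12 pairs compared their adjusted p was 0.24. Within the cascade, the 5 differences between subunits of a complex lay between -0.22 and 0.08, with exact permutation p from 0.2 to 0.9, and between -0.40 and 0.23 with 1 array left out. The pair of Cnga1 with its cone counterpart was not analysed here.

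**Figure D3:**
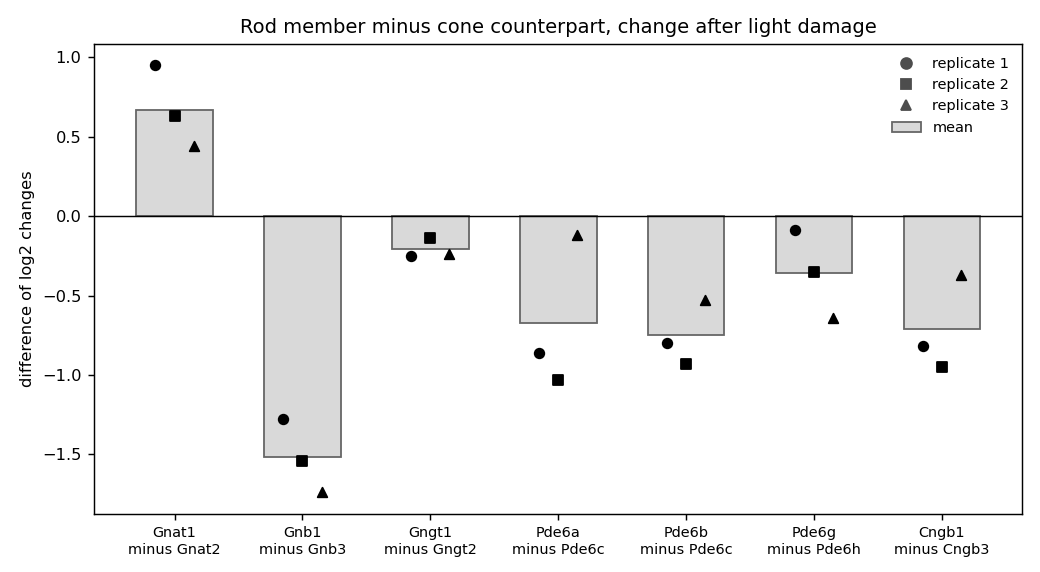
Difference of the log2 changes of each rod member and its cone counterpart. Bars are means and symbols are the 3 same-numbered pairs of arrays; 6 of the 7 means are below 0 and Gnat1 minus Gnat2 is above it.

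Other genes of the pathway were counted from lists of 1 probe set per gene. Of 16 measured rod identity and outer segment genes 2 fell (0.269% of all genes did), and the median change of the list was -0.62. The 2 were Nrl, the transcription factor of rod fate (-1.04 ± 0.19, limma adjusted p = 0.0378), and Reep6, a membrane protein of rods (-1.23 ± 0.24, 0.046). Nrl lost the call without light damaged replicates 2 or 3 or dark adapted replicates 1 or 2 (adjusted p up to 0.192), and Reep6 on leaving out any 1 array (0.0508 to 0.193). With the block 11 fell (2.13% of all genes did). Of 10 genes of shutoff and calcium feedback none passed at an adjusted p under 0.05, all 10 changes were negative with a median of -0.59, and with the block 7 fell in limma. Rcvrn, the calcium sensor recoverin, had the smallest p (-0.72, adjusted p = 0.103), while, chosen after their values were seen, the bright Sag (arrestin) and Pdc (phosducin, which binds transducin beta and gamma) had changes of -0.11 and -0.14. Of 9 cone genes 3 fell (Opn1sw, Opn1mw and Gnat2, with changes of -1.62, -1.18 and -1.07). In this list 7 of the 9 changes were negative and the median was -0.48. Opn1mw and Gnat2 lost the call without light damaged replicates 2 or 3 or dark adapted replicate 2 (limma adjusted p up to 0.0887 and 0.0853), and with the block 4 fell and 1 rose (6.73% of all genes rose with the block).

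Lists of other genes and cell types had medians nearer 0. With the block 6.73% of all genes rose and 2.13% fell. Of 11 other G protein beta and gamma genes none passed, 10 changes were positive and the median was 0.19. With the block 3 of them rose, Gnb2 among them (0.87, limma adjusted p = 0.0952, and 0.00116 with the block). Of 10 ON bipolar genes none passed with or without the block, with a median of 0.18, and Rgs7 had the smallest p (0.44, adjusted p = 0.489). Of 10 Müller glia genes Vim and Gfap rose (1.67 and 1.75; 1.74% of all genes rose), while 6 of the 10 changes were negative and the median was -0.11. With the block 4 rose and 2 fell, the 2 being Glul (glutamine synthetase; -0.99, limma adjusted p = 0.000775 with the block) and Rlbp1 (-0.50, 0.0329). Of 10 microglia and macrophage genes Cd68 and Lyz2 rose (1.88 and 1.30), 8 changes were positive and the median was 0.17. With the block 3 rose and P2ry12, a receptor of resting microglia, fell (-0.48, limma adjusted p = 0.0199). P2ry12 was dim, at 4.68 to 4.93 in light damaged and 5.09 to 5.47 in dark adapted retinas. These values lay around the lower quartile of the arrays (4.98 to 5.11). Glul, Rlbp1, P2ry12 and Ttr were singled out after their values were seen. The 7 measured reference genes averaged 11.04 to 11.22 in light damaged and 10.66 to 10.99 in dark adapted retinas, and Rplp0 rose (1.20); with the block 2 of the 7 rose. Centring on them moved the median change of all probe sets to -0.31, and the members then changed by -1.32 to -0.71.

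**Figure D4:**
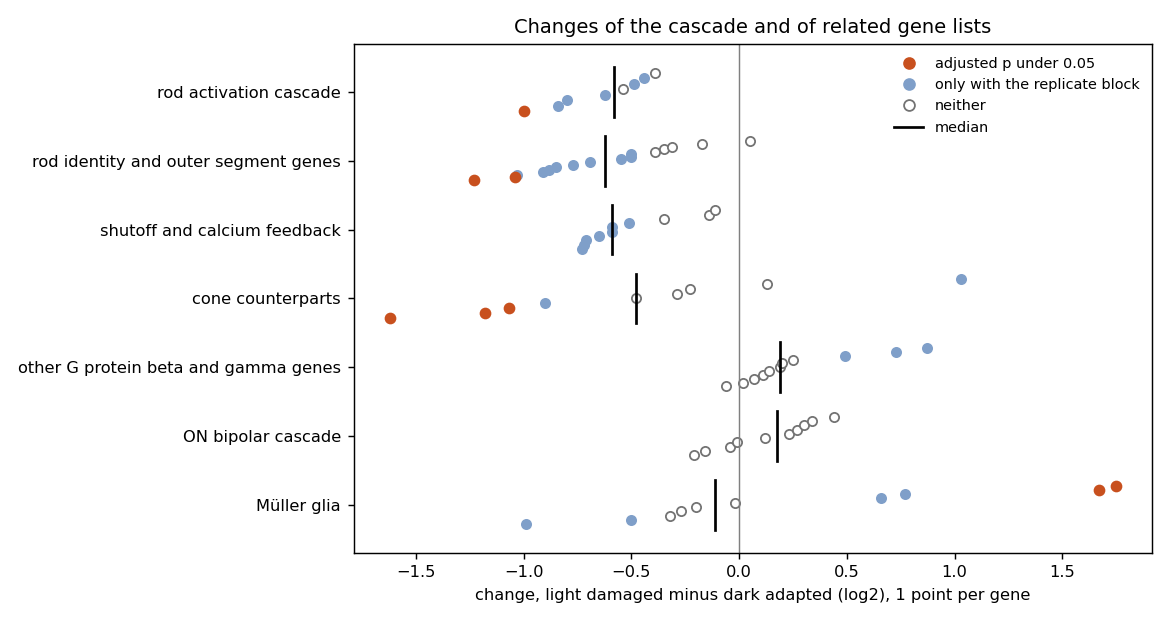
Log2 change of each gene (1 point per gene, brightest probe set) in the cascade and in 6 related lists, with the median of each list as a bar. The cascade and the 2 other rod lists lie left of 0 except Aipl1 (0.05), with medians of -0.58, -0.62 and -0.59. The cone list has a median of -0.48 with 7 of 9 changes negative. The ON bipolar and other G protein lists have medians of 0.18 and 0.19.

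The members varied alike over the arrays. The mean of the 8 genes was 11.55, 11.12 and 11.28 in light damaged retinas, against 12.18, 11.96 and 11.73 in dark adapted retinas, so replicate 1 was highest in both groups. Among 2342 genes with a range of at least 1 on the log2 scale, the 5 most correlated over the 6 arrays with the members' mean standardised profile had Pearson r of 0.992 to 0.996. Slc24a1, the sodium, calcium and potassium exchanger of rods, was first (-0.85 ± 0.18, limma adjusted p = 0.0581), followed by Zdhhc2, Rtbdn, Dpf3 and Pla2g7, of which Dpf3 fell (-1.02, limma adjusted p = 0.0421). That call was lost without light damaged replicates 2 or 3 or dark adapted replicates 1 or 2 (up to 0.192). These correlations describe 6 arrays that share the group difference and the replicate numbers.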

How the data were processed

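Total RNA of BALB/c retinas was measured on 6 Affymetrix arrays. The authors made the deposited values with RMA, per the submitters' processing notes (no version is named in the sources used here). The log2 scale was judged from their range (3.30 to 13.89), and they were used as deposited. The table held 45101 probe sets, 64 of them controls; 34945 had 1 gene in the platform annotation, 932 several and 9160 none, and RefSeq identifiers matched 34754 and changed 0 symbols. The number of arrays limits the precision.

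Groups were compared with limma 3.58.1 (lmFit, eBayes) in R 4.3.3 over 45037 probe sets, or 18193 genes by the brightest probe set, with Benjamini-Hochberg adjustment at 0.05. The fit without the block was tested on simulated data with the means of these arrays and the variances as moderated by limma. Simulated arrays were independent, without the shared deviations of same-numbered arrays. The fit found 4% of 50 log2 changes of size 0.5, 62% of those of 1.0 and 98% of those of 2.0, with 12 false calls. Changes near 0.5 were thus mostly missed in this simulation. Permutation tests used scipy 1.17.1. Deviations from group means of same-numbered arrays correlated at 0.731, 0.618 and 0.432, each over 0.1, so arrays of 1 number were treated as pairs, which no label states. Arrays of different numbers correlated at -0.48 to 0.00902. The pairing was judged from the same values that the block then tests, so these correlations are no independent evidence for it. Alternatives were the block, each array left out, quantile normalization, reference centring, an intensity trend, a level filter, probe set classes and gene means. Named genes were all members, up to 3 called genes per list or else that with the smallest p, the pairs and the 5 most similar genes; genes named outside this rule were picked after their values were seen. Members and lists were chosen with earlier results of these data known. Some genes of the lists, Nr2e3 and Cnga3 among them, are not analysed here.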

Additional observations from a re-analysis of the deposited data

How the results depend on the processing

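All 14 member probe sets (12 with the level filter, 13 without the s_at and x_at sets) and all 8 member genes kept a negative change under every alternative run. The number called did not hold. With the replicate block 2109 probe sets, 11 member probe sets, 6 member genes and 39 genes of the other lists changed, against 458, 0, 1 and 10 without it. Quantile normalization again gave 8 member probe sets (0.371% of all fell), 5 member genes (0.885%) and 19 list genes. Centring on reference genes gave 11 (0.766%), 7 (1.41%) and 23, and by construction lowers every change by the rise of those genes. The level filter gave 1 member probe set, Cngb1, with fewer probe sets tested, and the mean of a gene's probe sets gave 3 member genes (0.352%). With an intensity trend, and without the s_at and x_at sets, all counts stayed within 1.5 times. The cause of the other shifts was not tested.

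With 1 array left out, 128 to 380 probe sets, 0 member probe sets, 0 to 1 member genes and 6 to 12 list genes changed; the fewest probe sets remained without light damaged replicate 3 (128), and counts were also over 1.5 times lower without light damaged replicates 1 and 2 (187 and 165) and dark adapted replicate 2 (163). Of the 12 differences between genes, 10 were negative, and 9 to 10 with 1 array left out; the replicate block leaves each difference as it is, and its exact sign-flip permutation test over 3 pairs cannot give a p below 0.25. The difference of Gnb1 minus Gnat1 moved to -0.29 and that of Gngt1 minus Gnat1 to -0.28 with the mean of all probe sets. Single arrays moved the change of Pde6a and the differences of Gngt1 minus Gngt2, Pde6g minus Pde6h and Pde6a minus Pde6c by over 1.5 times, as given with those values. With 1 array left out Gngt1 minus Gnat1 ran from -0.13 to 0.04, Pde6a minus Pde6b from -0.03 to 0.23 and Cngb1 minus Cnga1 from -0.40 to -0.04.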
